A study of Mus musculus with 2 samples.

Results

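The cells described here carried the RNAs for the 3 chains of complement C1q but little RNA for the genes by which resident microglia are usually recognised. In each barcode, counts of unique molecular identifiers (UMIs, 1 for each captured RNA molecule) were expressed as CPM, the number of UMIs of a gene in every 1000000 of that cell. A cell was a member when C1qa, C1qb and C1qc summed to at least 5000 CPM while P2ry12, Tmem119, Siglech and Sall1, the homeostatic genes, summed to under 1500 CPM. A member also had under 40000 CPM of Apoe, under 20000 CPM of S100a8 plus S100a9 and under 3000 CPM of the class II genes H2-Aa, H2-Ab1 and H2-Eb1. This took 291 of 2985 kept cells, 140 of 1234 (11.3%, exact 95% Clopper-Pearson interval 9.63 to 13.2) in the Het library and 151 of 1751 (8.62%, 7.35 to 10.0) in the WT library.

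Both libraries came from the central nervous system of mice and were labelled as microglia-like cells, 1 with the genotype Cx3cr1-/+ (Het) and 1 with Cx3cr1+/+ (WT). The protocol given for both is the same: GFP+ and GFP- cells of the lineage-negative pool of Cx3cr1-/+ mice were injected into veins of CD45.1 recipients, 1 donor to 1 recipient, after 4 busulfan doses of 25 mg/kg. That text therefore names no Cx3cr1+/+ donor, and which donors gave the WT library is not given in the sources used here. Age, sex, time after transplantation, the number of animals pooled and the sort of the brain cells are likewise not given, so donor-derived and recipient cells cannot be told apart by label. With 1 library per genotype there was no replicate, no test was run, and every difference compares these libraries. Intervals cover counting error only. The libraries held 17828344 (Het) and 22062823 (WT) UMIs in 1837 and 2359 barcodes, and 339 barcode sequences were listed in both and were left out.

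C1q is the recognition part of the classical complement pathway. Its 3 chains assemble into one molecule that binds antibody and dying cells, and in the brain macrophages are its main source. Resident microglia add to C1q a set of homeostatic genes, among them the ADP receptor P2ry12 and the transcription factor Sall1. Macrophages of the meninges and vessel walls, and macrophages that enter from the blood after conditioning, make C1q with little of that set. Cx3cr1 encodes the receptor for fractalkine, a chemokine made by neurons. Of the other markers given for these cells, Cst3 encodes cystatin C, an inhibitor of cysteine proteases, and Ltc4s encodes leukotriene C4 synthase.

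In GENCODE M21 (GRCm38), C1qa spans chr4:136895917-136898803 and C1qb chr4:136880129-136886187, both on the minus strand. Cst3 spans chr2:148871722-148875692 and Ltc4s chr11:50236461-50238616, also on the minus strand. RefSeq promoters of GRCm38.p6, 250 bases before to 50 after the gene start, were matched for 4 of 5 genes looked up (C1qa, C1qb, C1qc, Cst3 and Ltc4s). They are shown for the matched marker genes and for C1qc. Cst3 and Ltc4s were lower in members than in homeostatic-high cells, defined below. Summed C1q, which belongs to the rule, was lower too, at 15602 and 13726 CPM against 21342 and 21163 (Het and WT). Only the proportions of its chains were similar. The windows are C1qb chr4:136886151-136886450, C1qc chr4:136892865-136893164, Cst3 chr2:148875463-148875762 and Ltc4s chr11:50238483-50238782, all on the minus strand and printed 5′ to 3′. Capitals mark GAGGAA or its reverse complement TTCCTC, a purine-rich core of the kind bound by the macrophage factor PU.1.
C1qb: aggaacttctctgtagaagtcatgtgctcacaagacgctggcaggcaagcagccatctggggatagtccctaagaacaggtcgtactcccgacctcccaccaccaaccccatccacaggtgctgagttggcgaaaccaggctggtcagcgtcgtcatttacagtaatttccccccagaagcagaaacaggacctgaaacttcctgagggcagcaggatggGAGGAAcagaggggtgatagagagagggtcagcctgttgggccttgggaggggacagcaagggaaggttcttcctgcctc
C1qc: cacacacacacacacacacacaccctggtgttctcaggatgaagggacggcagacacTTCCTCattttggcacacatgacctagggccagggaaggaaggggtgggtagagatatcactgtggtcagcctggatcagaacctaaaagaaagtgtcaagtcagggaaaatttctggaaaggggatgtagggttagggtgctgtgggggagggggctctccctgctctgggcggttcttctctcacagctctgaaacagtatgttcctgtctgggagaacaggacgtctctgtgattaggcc
Cst3: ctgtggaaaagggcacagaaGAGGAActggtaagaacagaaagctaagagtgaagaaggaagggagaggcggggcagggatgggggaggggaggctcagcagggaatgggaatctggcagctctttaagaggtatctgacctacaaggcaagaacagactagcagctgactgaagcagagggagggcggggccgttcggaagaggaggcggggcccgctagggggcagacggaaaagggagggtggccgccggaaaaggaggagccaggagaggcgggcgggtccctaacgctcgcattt
Ltc4s: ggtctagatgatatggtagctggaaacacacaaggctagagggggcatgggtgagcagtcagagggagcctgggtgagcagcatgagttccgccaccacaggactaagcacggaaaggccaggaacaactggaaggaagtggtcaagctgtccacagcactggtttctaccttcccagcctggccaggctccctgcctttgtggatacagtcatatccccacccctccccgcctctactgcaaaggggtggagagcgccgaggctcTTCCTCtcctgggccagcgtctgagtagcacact
Each of the 4 windows held the motif 1 time, in the forward direction in C1qb and Cst3 and in the reverse direction in C1qc and Ltc4s. Of all 32851 promoters of the same length, 28.3% held it on either strand. A match describes the letters only.

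The members were set beside the cells that miss the rule at 1 gate only. Homeostatic-high cells, at 1500 CPM or more of the 4 homeostatic genes, numbered 124 (Het) and 185 (WT). Apoe-high cells numbered 123 and 51, class II-high cells 63 and 102, and cells high in S100a8 and S100a9 61 and 87. The homeostatic gate ran through a continuous range of values: 19 and 25 members lay within 20% below it and 23 and 24 cells within 20% above it. At the C1q gate 6 and 3 members lay within 20% above and 5 and 14 cells within 20% below. Members had a median of 16764 and 15957 CPM of C1q, 531 and 580 CPM of homeostatic genes and 13729 and 8301 CPM of Apoe (Het and WT). These values chose the cells and are given as a description.

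**Figure D1:**
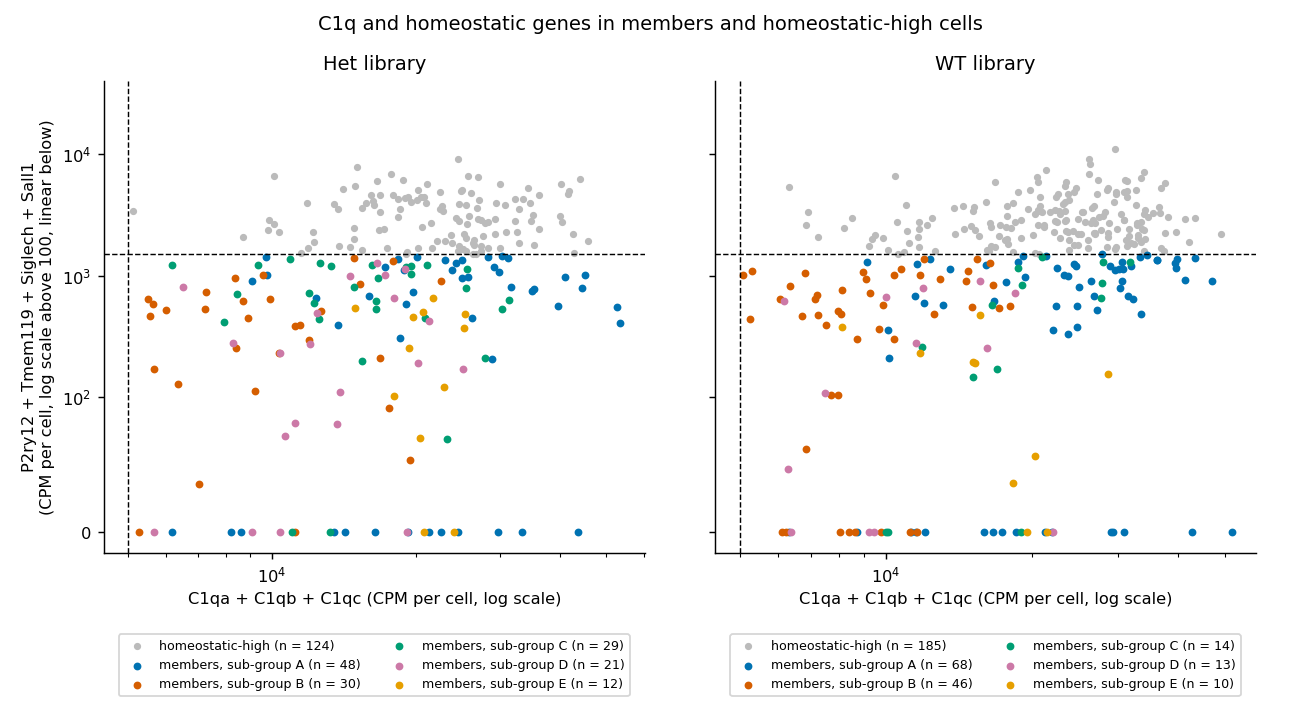
Each point is 1 cell, with the summed C1q chains (x axis, CPM, log scale) against the summed homeostatic genes (y axis, CPM, log above 100 and linear below) in the Het and WT library. Grey points are homeostatic-high cells, coloured points members by sub-group, and dashed lines the gates at 5000 and 1500 CPM. Points lie on both sides of the homeostatic gate with no gap, and 23 Het and 33 WT members sit at 0.

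Depth entered the homeostatic gate. Members had a median of 6569 (Het) and 5118 (WT) UMIs, homeostatic-high cells 6021.5 and 5118. A cell of 2000 UMIs passes under the gate only with fewer than 3 homeostatic UMIs, and 23 and 37 members had under 2000 UMIs. The median member had 3 and 2 homeostatic UMIs, and 23 (16.4%) and 33 (21.9%) had none. When every cell was thinned to 2000 UMIs before the rule was applied, 117 Het members became 103, of which 89 were members before, and 20 earlier members then counted as homeostatic-high. In the WT library 114 became 117, with 91 shared and 17 earlier members counted as homeostatic-high. In the reverse direction 11 homeostatic-high cells became members in each library.

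The C1q gate was compared with clusters led by markers of other cell types. In a cluster of NK cell-like cells, 0 of 79 cells reached the C1q gate, a count that leaves room for a share of at most 3.80%, and the highest cell had 3579 CPM. None of 16 B cell-like cells reached it either, which allows up to 18.8%. In the cluster led by endothelial genes 1 of 75 cells reached it, with 19125 CPM. C1q UMIs were also frequent in some neutrophil-led cells: in 1 cluster led by Acod1, Stfa2l1 and Asprv1, 134 of 219 cells reached the gate, at a cluster median of 7839 CPM and 18901 UMIs, and 5 of its cells were members. The part of free RNA or shared droplets there was not tested. Within the members C1qa, C1qb and C1qc gave 32.5%, 39.3% and 28.2% of C1q UMIs in the Het library and 32.2%, 39.2% and 28.6% in the WT library. The homeostatic-high cells gave 34.1%, 37.1% and 28.7%, and 33.3%, 38.0% and 28.7%. The 3 chains thus kept similar proportions in members and homeostatic-high cells, which differed in total C1q. Among the sub-groups of the members, described below, they varied more. C1qb gave 43.2% (41.7 to 44.7) in sub-group A and 36.3% (34.7 to 37.8) in C of the Het library. In the WT library it gave 42.2% (40.8 to 43.6) and 36.2% (33.9 to 38.4).

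Of the 4 genes given as markers, C1qa and C1qb belong to the rule. C1qa stood at 5078 and 4415 CPM and C1qb at 6126 and 5386 CPM in the members (Het and WT), against 7283 and 7049.8 (C1qa) and 7926 and 8038 (C1qb) in homeostatic-high cells. Cst3 was at 12311 and 15241 CPM in the members, 28052 and 29802 in homeostatic-high cells, 10732 and 12627 in Apoe-high cells and 8352 and 8955 in all other kept cells. Ltc4s was at 335 and 480.5 CPM in the members, 956 and 923 in homeostatic-high cells, 343 and 551 in Apoe-high cells and 194 and 181 in all other kept cells. Both markers were thus lower in members than in homeostatic-high cells in each library, and the order between members and Apoe-high cells was not a 1.5-fold difference in both libraries. Cst3 also went with depth: it was at 28658 and 33135 CPM in members of under 2000 UMIs and 9309.8 and 10827 in those of 10000 or more. The part of depth in its level was not tested. After thinning to 1000 UMIs, which left out 6 and 7 members, Ltc4s was detected in 33.6% and 48.6% of members and 57.4% and 60.7% of homeostatic-high cells. In NK cell-like cells, the background, it was detected in 0 of 23 Het cells, which leaves room for at most 13.04%, and in 1.82% of 55 WT cells. Their median depth before thinning was 7622 and 4941 UMIs. Without thinning, Ltc4s was detected in 75.7% and 82.8% of members, 91.1% and 91.4% of homeostatic-high cells and 8.33% and 3.64% of NK cell-like cells.

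Summed markers of other cell types ranged widely in the members. The neuron list summed to 0 and 3.71 CPM, the mast cell or basophil list to 2.36 and 0, and the fibroblast or mural list to 6.29 and 2.23, with 5 and 6 of 6 mast cell genes at 0. The endothelial list (8 genes) summed to 40.9 and 49.8 CPM and the oligodendrocyte list (7 genes) to 73.1 and 71.3 CPM. The NK and T cell list (10 genes) summed to 22.0 and 295 CPM, with 6 and 4 genes at 0. B cell genes summed to 131 and 104 CPM, erythroid genes to 101 and 104, ependymal or choroid plexus genes to 107 and 48.3 and astrocyte genes to 21.2 and 30.4. Lists of other myeloid cells were present: border-associated macrophage genes summed to 2624 and 2444 CPM, patrolling monocyte genes to 1189.7 and 1834 and classical monocyte genes to 834 and 1717. Neutrophil genes, which include S100a8 and S100a9 of the rule, summed to 1128 and 4081 CPM and dendritic cell genes to 981 and 786. The members together thus carried RNA of several kinds of myeloid cells. Summed levels cannot tell several kinds of cells from free RNA or shared droplets, which was not tested. The name C1q macrophage is kept here only for the rule as a whole.

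Compared with homeostatic-high cells, the members had lower levels of nearly the whole resident microglial programme and higher levels of genes of monocyte-derived and border macrophages. A gene was counted when it was beyond 1.5-fold the same way in both libraries and had at least 100 UMIs over both populations in each. Of 3268 genes, 242 were higher in members (7.41%) and 436 lower (13.3%). The populations were parted by genes of the same cells, so these counts describe the gate and are no test. Rescaling moved the median gene by 0.17 (TMM) and 0.22 (median of ratios) in the Het library and by 0.12 and 0.10 in the WT library on the log2 scale. The split was then 381 higher to 320 lower, and 376 to 310. No list median given below for this comparison changes sign under a shift of that size.

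Among 22 resident microglia genes outside the rule, 20 could be compared, and 0 were higher and 19 lower in the members. Their median log2 ratio was -1.70 and -1.56 (Het and WT), against -0.08 and -0.04 over all genes. Summed, the list stood at 8651 and 9177 CPM in members and 23610 and 22684 in homeostatic-high cells. Sparc, a matricellular protein, was at 399 and 711 CPM against 2341 and 2279, a log2 ratio of -2.55 (-2.69 to -2.41) in the Het library and -1.68 (-1.79 to -1.57) in the WT library. Cx3cr1 was at 692 and 821 CPM against 2659.6 and 2353. Slc2a5, a fructose transporter, was low at 11.8 and 23.02 CPM against 141 and 136. The member of the list that was not beyond 1.5-fold in both libraries was Cd33, at 154 and 129 against 225 and 197 CPM.

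Most of the named lower genes were not on that list. Nav3 had the lowest ratio of the named genes, at 3.15 and 11.9 CPM in members and 129 and 112 in homeostatic-high cells. Slc1a3, a glutamate transporter usually counted as an astrocyte marker, was at 3.93 and 16.3 against 104 and 121 CPM. Adgrg1, an adhesion receptor, was at 11.8 and 23.8 against 131 and 143, and Adamts1, a secreted protease, at 54.3 and 46.0 against 277 and 253. Col27a1, Lrrc3, Ecscr, Fscn1, Rapgef5, Nav2 and Lag3, the last of which is on that list, were lower by log2 ratios between -3.54 and -1.95. The actin-bundling gene Fscn1, for example, was at 37.0 and 62.4 CPM in members and 230.2 and 257 in homeostatic-high cells.

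Genes used to mark marrow-derived brain macrophages were higher: 10 of 11 compared, median 1.46 and 1.01. Ms4a7 was at 594 and 375 CPM in members against 228 and 104, and Lyz2, lysozyme, at 5600.4 and 6358 against 2299.6 and 2049.6. Thinned to 1000 UMIs, 32.1% and 31.2% of members and 11.5% and 9.29% of homeostatic-high cells had an Ms4a7 UMI, and 0 of 23 and 0 of 55 NK cell-like cells, which allows up to 13.04% and 5.45%. Without thinning the shares were 67.1% and 50.3% of members and 32.3% and 27.6% of homeostatic-high cells. Of 7 border-associated macrophage genes 5 were higher, among them the mannose receptor Mrc1 (343 and 313 against 147 and 83.7 CPM) and the chemokine Pf4 (1240.1 and 612 against 322 and 165). All 6 patrolling monocyte genes compared were higher, including the sialomucin Spn, at 81.8 and 103 against 9.84 and 52.4 CPM. That difference rested on sub-group B of the members, described below, where the list summed to 2855 and 2924 CPM. It stood at 81.8 and 135 CPM in A, 455 and 354 in C, 277 and 329 in D and 232 and 947 in E. Homeostatic-high cells had 409 and 780 CPM. Of 7 interferon response genes 5 were higher and 0 lower, with Ifitm3 at 964 and 1459 against 319 and 537 CPM. Cytoskeletal and S100 genes led the named higher genes: Vim, vimentin, was at 731 and 962 against 198 and 229 CPM, and S100a4 at 252 and 378 against 51.1 and 106. Crip1, Lgals3, S100a10, Lgals1, Cfp, Ahnak, Lilr4b and Ifi207 were also among the 12 highest.

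Chemokine genes differed in part: 4 of 11 were higher and 0 lower. Cxcl2, which draws neutrophils, stood at 3703 and 2844 CPM in members and 467 and 626 in homeostatic-high cells, the highest log2 ratio of the named genes at 2.99 (2.85 to 3.13) in the Het library and 2.18 (2.08 to 2.29) in the WT library. Ccl4, in contrast, stood at 2217 and 1848 CPM against 2907 and 2862, which is not beyond 1.5-fold in both libraries. Receptors for dying cells were split: Mertk was at 112 and 96.5 against 414 and 339 CPM, while its relative Axl was at 142 and 105 against 58.0 and 50.2. In that list 2 of 10 genes were higher and 5 lower. Among genes of eicosanoid synthesis, to which Ltc4s belongs, 1 of 10 was higher and 6 lower. Ptgs1, cyclooxygenase 1, was at 142 and 157 against 398 and 384 CPM, and Hpgds, a prostaglandin D synthase, at 197 and 159.7 against 454 and 368. Alox5ap, which serves the same leukotriene branch as Ltc4s, was at 637 and 806 against 496 and 648, within 1.5-fold in both libraries.

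The disease-associated microglia list was mixed, with 6 of 19 genes higher and 3 lower. Fabp5, a fatty acid carrier, was at 167 and 112 CPM against 14.8 and 38.6, Lilrb4a at 315 and 282 against 87.5 and 96.1, and Ctsl, cathepsin L, at 513 and 586 against 1375 and 1359.6. Both ferritin chains were higher, Fth1 at 11845 and 12827 against 6272 and 7296 and Ftl1 at 7159.7 and 6851 against 4138 and 4354 CPM. Of 17 macrophage transcription factors 2 were higher (Cebpb and Bhlhe40) and 8 lower, including the repressor Bhlhe41 at 77.8 and 95.8 against 248 and 245 CPM. Spi1, which encodes PU.1, was at 419.9 and 510.2 against 402 and 396, within 1.5-fold. Immediate early and heat shock genes, which can be induced while tissue is dissociated, were lower for 7 of 14, with Jun at 2125 and 2261 against 4672 and 4301 CPM. The nuclear RNA Malat1 made up 2.30% and 2.16% of member UMIs and 3.48% and 3.11% of those of homeostatic-high cells. The part of RNA quality in these differences was not tested.

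**Figure D2:**
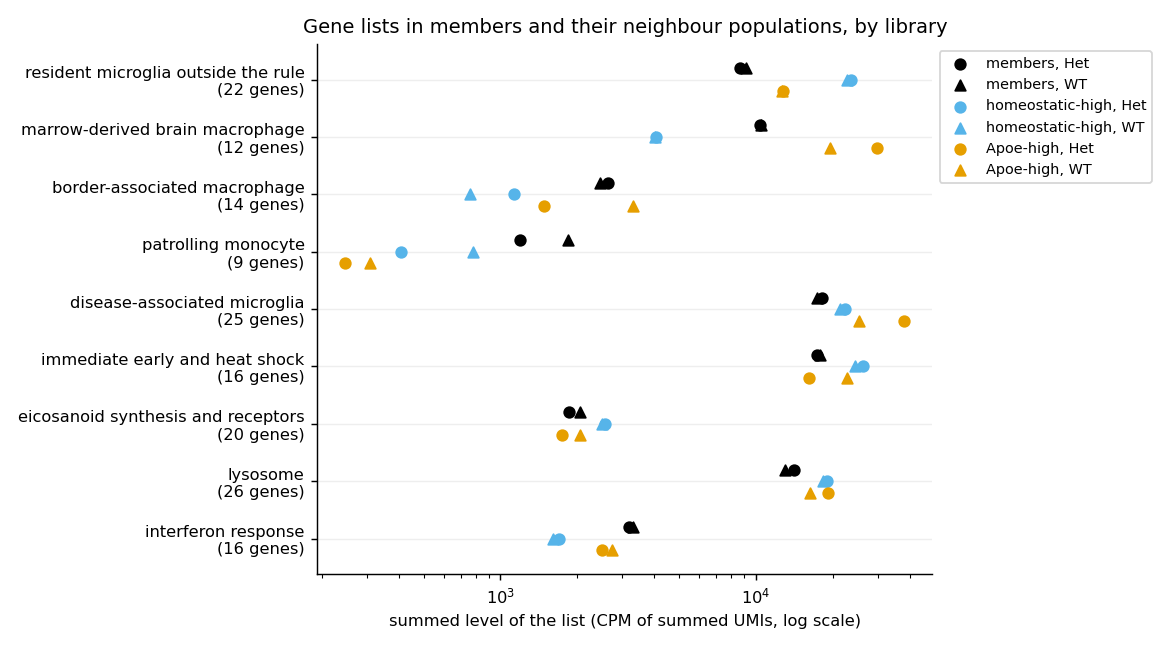
Summed level of 9 gene lists (x axis, CPM of summed UMIs, log scale) in members (black), homeostatic-high cells (blue) and Apoe-high cells (orange). Circles are the Het and triangles the WT library, 1 library each and no error bars. Members sit below homeostatic-high cells for resident microglia genes (8651 and 9177 against 23610 and 22684 CPM) and above Apoe-high cells for patrolling monocyte genes.

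Apoe-high cells, which also passed under the homeostatic gate, had more Spp1 than members. They also had more RNA of several lysosomal and disease-associated microglia genes, and less of patrolling monocyte genes. Of 2350 genes compared, 272 were higher in members (11.6%) and 53 lower (2.26%), with a median over all genes of 0.23 and 0.18 on the log2 scale. Apoe is part of the gate and takes 84185 and 70058 CPM of those cells. Spp1, osteopontin, was at 111 and 72.8 CPM in members and 7689 and 4285 in Apoe-high cells. Of 19 disease-associated microglia genes 1 was higher and 6 lower in members, and of 22 lysosomal genes 0 were higher and 5 lower. Ctsd, cathepsin D, was at 3199 and 3273 against 9739 and 5981 CPM, Trem2 at 863 and 821 against 2246 and 1564, and the growth factor Igf1 at 48.8 and 57.9 against 262 and 129. Lyz2, Ms4a7, Abca1, P2rx4, Bst2, Cebpa, Fcrls, Tmx4 and Nrp1 were the other named lower genes.

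The named genes higher in members than in Apoe-high cells were of 2 kinds, and the sub-groups separate them. Hist1h1b, a linker histone of dividing cells, was at 136 and 132 CPM in members against 6.98 and 8.79, and Pclaf, a partner of the replication clamp, at 103 and 109.9 against 2.62 and 8.79. Both were highest in sub-group D. Spn, Ace, Napsa, Pglyrp1, Clec4e, Traf1, Eno3, Dusp5 and S100a4 were highest in sub-group B, described next, apart from S100a4 in the Het library, which was highest in D. Cd36 was highest in B in the Het and in E in the WT library. Ace, for example, was at 90.4 and 141 CPM in members and 14.0 and 11.7 in Apoe-high cells. All 6 patrolling monocyte genes compared were higher. Without sub-group B the counts fell to 139 higher and 25 lower, and the log2 ratio of Ace in the Het library became -0.057 and that of Pglyrp1 became -0.31 and -0.11. Class II-high cells were closer to members, with 128 of 2843 genes higher (4.5%) and 36 lower (1.27%), and 9 of 15 resident microglia genes were higher in members than in them.

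Clustered on their own, without the genes of the rule, sex-linked genes and genes 1.5-fold apart between the libraries, the members fell into 5 sub-groups, lettered A to E by size. Sub-group A held 48 (34.3%, 26.5 to 42.8) Het and 68 (45.0%, 36.9 to 53.3) WT members, B 30 and 46, C 29 and 14, D 21 and 13, and E 12 and 10. A finer resolution gave 6 groups, and keeping the genes that differed between libraries gave 4, so the borders are those of 1 setting. The genes that lead a sub-group define it and carry no test.

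Sub-group A was shallow and carried little short-lived or nuclear RNA. Its cells had a median of 2899.5 and 2044 UMIs (Het and WT), and 114 of its 116 cells fell into 1 cluster of the whole series. Immediate early and heat shock genes summed to 1549 and 2375 CPM in A, against 19248 and 19022 in B, and Malat1 made up 0.557% and 0.318% of its UMIs. Ribosomal protein genes took 21.2% and 21.6%, and macrophage transcription factor genes summed to 2912 and 3368 CPM against 10009.9 and 11097 in C. Yet A held the highest C1q (median 24050.2 and 24522 CPM) and the most Cst3 (27985 and 37220.1 CPM) of the 5, and its leading genes were Ldhb, Sparc, Cst7, Fscn1 and Ecscr. Resident microglia genes summed to 14382 and 16378 CPM there, below the homeostatic-high cells of the same shallow cluster, at 25569 and 22567 CPM. That cluster held 51 and 70 members with a median of 2949 and 2148 UMIs, and 46 and 81 homeostatic-high cells with 3353 and 2534. Cst3 within it was at 23247 and 34321 CPM in members and at 53533 and 48471 in homeostatic-high cells. The part of depth and RNA quality in sub-group A was not tested.

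Sub-group B was deep and carried patrolling monocyte genes. It had a median of 14722 and 12579 UMIs per cell and held 35.6% and 56.7% of all member UMIs, so it weighs most in summed levels. Of its 10 leading genes 6 were on the patrolling monocyte list: Pglyrp1, Itgal, Treml4, Adgre4, Ace and Cd300e. That list summed to 2855 and 2924 CPM in B and to at most 947 in any other sub-group of either library. Itgal, a leukocyte integrin, was at 424 and 483 CPM in B and 21.8 and 26.0 in A. C1q was lowest here, with a median of 9381 and 8854 CPM, and resident microglia genes summed to 6882 and 8031 CPM. Of its cells 8 of 30 and 16 of 46 were among the 5% with the highest Scrublet scores of their library, against 0 or 1 in each other sub-group. In the WT library 10 cells of B held both Xist and Y-linked UMIs, of 11 such members. Other populations of the WT library held such cells too. They were 19 of 185 homeostatic-high cells, 9 of 102 class II-high cells and 25 of 87 cells high in S100a8 and S100a9. Whether any of these barcodes hold more than 1 cell was not tested, nor was the part of depth.

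Sub-group C had, with A, the highest levels of resident microglia genes, and it had the highest level of disease-associated microglia genes. Resident microglia genes summed to 14349.6 and 16264 CPM and Cx3cr1 stood at 1432 and 1361 CPM, the highest of the 5 sub-groups in each library. Adamts1, among its leading genes with Gpnmb, was at 305 and 111 CPM in C and at 0 in D of both libraries. Disease-associated microglia genes summed to 29478 and 33080 CPM in C, the highest of the 5 sub-groups in each library. Homeostatic-high cells had 22244 and 21301 CPM of that list and Apoe-high cells 38098 and 25325. Of the 43 cells of C, 27 fell into a cluster of the whole series led by Gpnmb, Spp1, Apoe and Ms4a7. Another 15 fell into a cluster led by Adamts1, P2ry12 and Nav3. Lysosomal genes summed to 19318 and 17735 CPM and cathepsins and cystatins to 24442 and 22470.3. Its median depth was 6938 and 4539.5 UMIs.

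Sub-group D was led by Mmp12, a macrophage elastase, Cd69, the chemokine gene Cxcl14 and genes of cell division. Cell cycle genes summed to 4797 and 2390.3 CPM, against 1611 and 1361 in B and 496 and 403 in E. Mki67 was at 270.2 and 75.1 CPM and Birc5, survivin, at 314 and 109.7. The Het sum was the highest of the 5 in that library, while in the WT library C had more, at 2567 CPM from 14 cells. Resident microglia genes were low, at 5067 and 5589 CPM, and nuclear-encoded respiratory chain genes summed to 13406 and 13233 CPM.

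Sub-group E carried the markers of border-associated macrophages, the macrophages of meninges and vessel walls, and is called border-associated macrophage-like. All of its 22 cells fell into 1 cluster of the whole series, whose own leading genes were those of basophils (Prss34, Mcpt8) and of class II antigen presentation. The leading genes of E included Lyve1, Cbr2, Cd209f and Cd163, all on the border-associated macrophage list, which summed to 9429.8 and 12584 CPM and to at most 2317 in the other sub-groups. Not every cell of E carried them. Of 12 Het and 10 WT cells, Cd209f had a UMI in 1 and 3, Lyve1 in 4 and 7, Cd163 in 9 and 8 and Cbr2 in 10 and 8. Ccl24 and Clec10a, also on the list, were found in 2 and 5 and in 4 and 6. Mrc1 was detected in all 12 Het and all 10 WT cells, at 1186 and 1611 CPM. Pf4 likewise was found in each cell, at 4634 and 2518 CPM, and chemokine genes summed to 30951 and 22192 CPM, the highest of the 5. Immediate early and heat shock genes were high there too, at 34412 and 33387 CPM against 17354 and 17736 in all members, and their part in the chemokine level was not tested. Of the 15 named genes with the highest ratio of members to all other kept cells, Ccn1, Cd163, Pf4, Ccl7, Mrc1, Cbr2, Itsn1, Folr2, Dab2, Vcam1 and Lyve1 were highest in E in both libraries. In that comparison 396 of 8544 genes were higher in members (4.63%) and 519 lower (6.07%). B3galnt1, Cenpm, Ccl12 and Plau made up the 15.

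**Figure D3:**
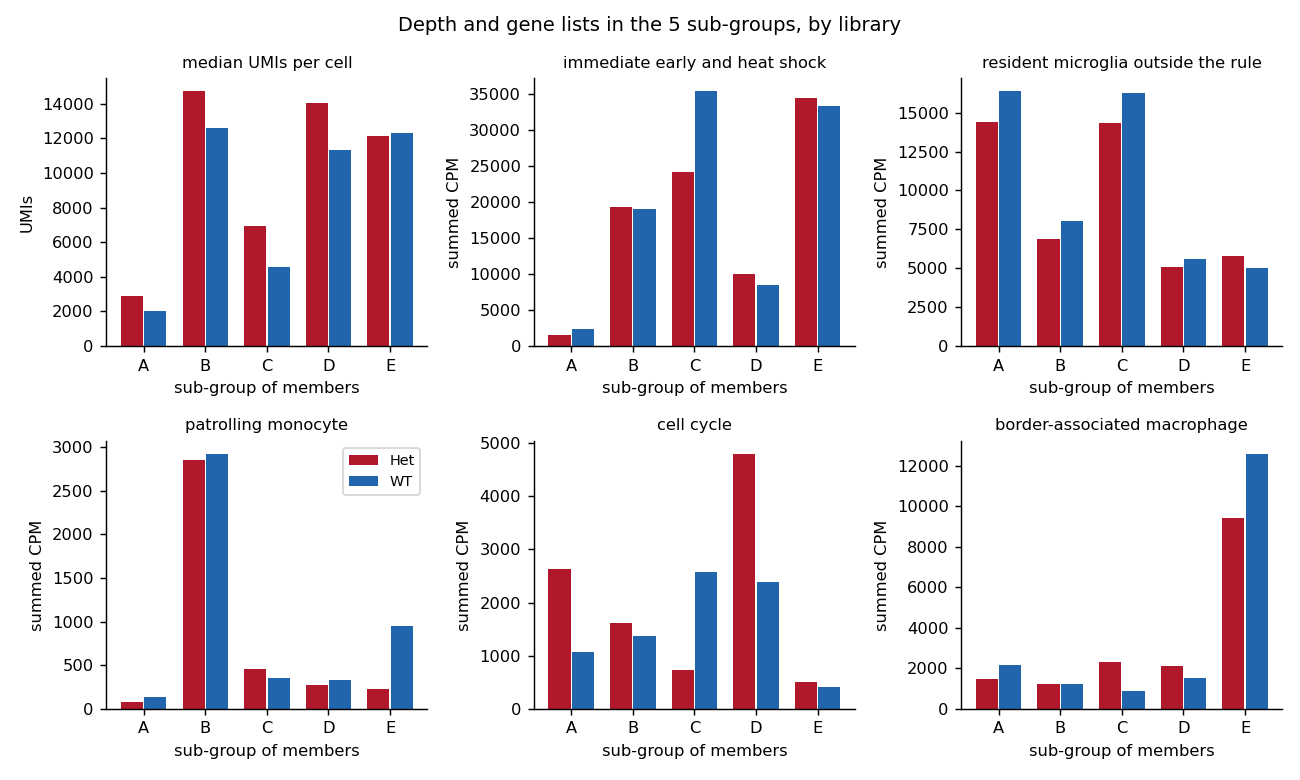
Median UMIs per cell and the summed level of 5 gene lists (y axes, linear from 0) in sub-groups A to E, with the Het library in red and the WT library in blue. Bars are single values of 1 library each, with no error bars. A stands out by depth (2899.5 and 2044 UMIs) and low immediate early genes, B by patrolling monocyte genes, and E by border-associated macrophage genes (9429.8 and 12584 CPM).

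Between the libraries the members differed in genes carried by few cells. Of 3549 genes with at least 100 UMIs over the members of both libraries, 135 were beyond 1.5-fold higher in Het members (3.8%) and 162 lower (4.56%), around a median log2 ratio of 0.00. Median-of-ratios scaling, which moved the median gene by -0.08, gave 92 higher and 222 lower. The mix of sub-groups differed, and with the same share of UMIs from each sub-group the counts were 105 and 104. Without sub-group B they were 94 and 72, and without sub-group D 86 genes were higher. Leaving out a sub-group also removes UMIs, so fewer genes can reach 100 UMIs. The number of genes compared was not recounted for these counts.

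Cx3cr1, the gene of the genotype label, stood at 692 CPM (647 to 739) in Het and 821 CPM (773 to 870) in WT members, a ratio of 0.843 (0.771 to 0.922). It was detected in 117 of 140 and 119 of 151 members. The direction rested on sub-group B, where it was at 621 and 954 CPM (log2 ratio -0.62, -0.82 to -0.42). In A it was at 633 and 509 CPM, in C at 1432 and 1361, in D at 369 and 468 and in E at 554 and 584, and the interval of each ratio included 0 on the log2 scale. Without sub-group B the ratio was 1.13, with each cell weighing the same 1.07, and after thinning before the rule 1.08. Homeostatic-high cells had 2659.6 and 2353 CPM and Apoe-high cells 771 and 1213. Thinned to 1000 UMIs, 47.8% of Het and 45.8% of WT members had a Cx3cr1 UMI, and without thinning 83.6% and 78.8% did. NK cells express Cx3cr1 themselves, so the NK cell-like cells (8.70% and 14.5% after thinning) are no background for it. The labels do not say which transcript the altered allele makes, so these counts do not check the genotype.

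**Figure D4:**
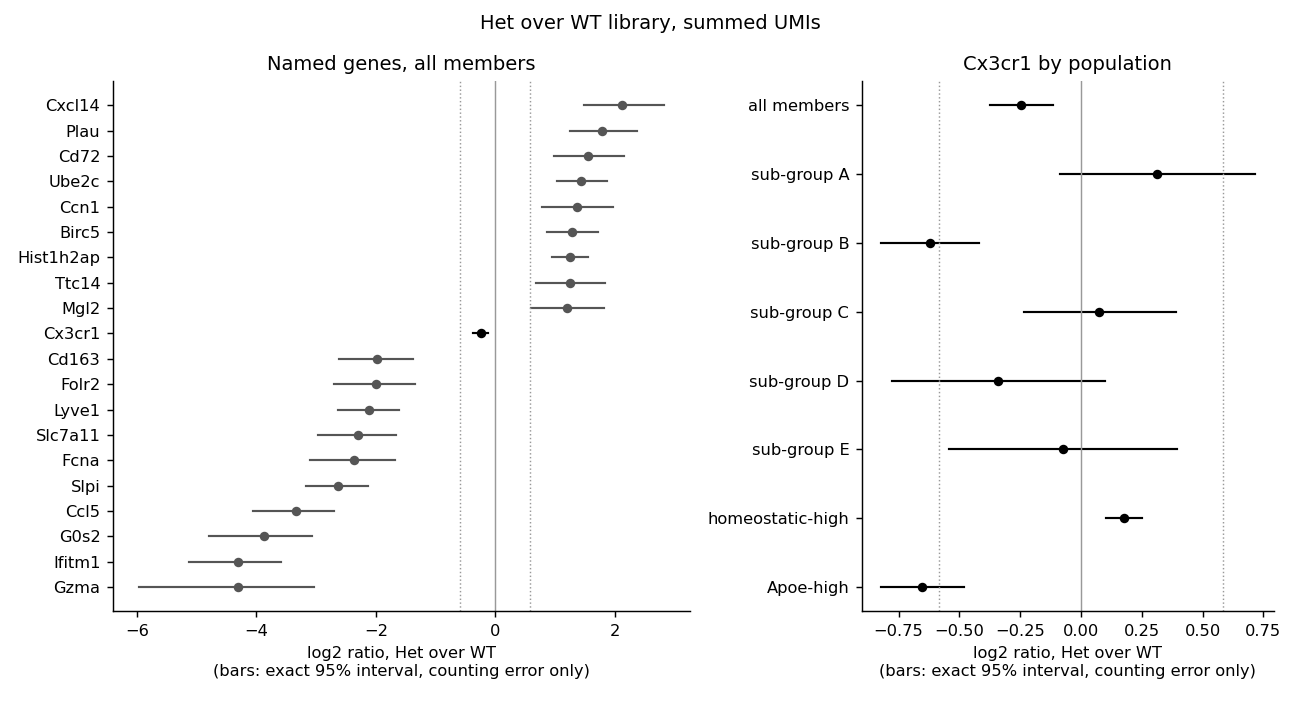
Log2 ratio of the Het over the WT library (x axes) for named genes and Cx3cr1 in all members (left) and for Cx3cr1 by sub-group and neighbour population (right). Points are ratios of summed UMIs, bars exact 95% intervals for counting error only, and dotted lines 1.5-fold. Cx3cr1 lies within 1.5-fold in all members, and the intervals of sub-groups A, C, D and E include 0.

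Of 11 border-associated macrophage genes compared, 1 was higher and 6 were lower in the Het library, with a median log2 ratio of -1.25 over the 11. The summed list did not follow that median: it stood at 2624 and 2444 CPM in all members, 2317 and 885 in C, 2096 and 1542 in D and 9429.8 and 12584 in E. Lyve1, the hyaluronan receptor, was at 32.2 and 139 CPM, and its log2 ratio was -2.11 (-2.63 to -1.61). Cd163, the haemoglobin scavenger receptor, was at 22.8 and 89.9, and Folr2, a folate receptor, at 18.9 and 75.0 CPM. Within sub-group E, 4 of 12 Het cells and 7 of 10 WT cells had a Lyve1 UMI, and 5 of 12 and 8 of 10 a Folr2 UMI. The highest cell held 43.9% of the Lyve1 UMIs of the Het and 35.8% of those of the WT members. Mrc1, at 343 and 313 CPM, and Stab1, at 346 and 311, were within 1.5-fold, and Pf4 was higher in the Het library at 1240.1 and 612 CPM, and its log2 ratio was 1.02 (0.90 to 1.14). In E the Pf4 level was 4634 and 2518 CPM, with medians over cells of 4782 and 2971. Ccn1 and Mgl2, named among the higher genes, also came mostly from E, which held 100% and 85.7% of Ccn1 UMIs and 85.5% and 60.0% of Mgl2 UMIs. Without E the log2 ratio of Mgl2 was -0.22, and with members limited to under 20000 CPM of Apoe that of Ccn1 was -1.87.

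Cell division genes were higher in the Het library: 5 of 10 lay beyond 1.5-fold in that direction and 0 in the other, and the median of the 10 was 0.76 on the log2 scale. Ube2c was at 139 and 51.2 CPM, and its log2 ratio was 1.44 (1.03 to 1.86), Birc5 at 119.5 and 49.0 and Hist1h2ap at 243 and 102. These RNAs were found in 31 and 20 (Ube2c), 25 and 16 (Birc5) and 27 and 18 (Hist1h2ap) members. Sub-group D held 48.6%, 56.6% and 53.4% of their UMIs in the Het library. Cxcl14, the gene with the highest ratio, was at 81.0 and 18.6 CPM, and its log2 ratio was 2.13 (1.48 to 2.82). Plau, urokinase, was at 92.8 and 26.7 CPM, and its log2 ratio was 1.80 (1.25 to 2.38). D held 62.1% of the Het Cxcl14 UMIs and 24.0% of the WT ones. Within D, Cxcl14 was at 234 and 34.6 CPM and Plau at 248 and 34.6, over 21 and 13 cells. Cd72 and Ttc14 were also among the named higher genes, with log2 ratios of 1.55 and 1.24.

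The genes with the lowest Het ratios included NK cell and neutrophil genes found in few WT cells. Gzma, granzyme A, had 5 UMIs in the Het and 105 in the WT members, of which 99 were in 1 cell of sub-group B. Ccl5 had 21 and 226 UMIs, with 208 in 1 WT cell. Without the highest cell of each library the log2 ratio of Gzma was -0.50 and that of Ccl5 -0.39, against -4.31 and -3.35 with them. Ifitm1 was spread more widely, with 336 WT UMIs in 22 cells, 88.7% of them in sub-group B, and its ratio without the highest cells was -4.20. G0s2 had 13 Het and 201 WT UMIs, 99.0% of the latter in B. Slpi, a protease inhibitor, was at 29.9 and 185 CPM, Slc7a11, a cystine transporter, at 19.7 and 96.5, and Fcna, a ficolin, at 16.5 and 84.7. The neutrophil list summed to 1128 and 4081 CPM, and in B to 1244 and 5821. Of its 8 genes compared 1 was higher and 6 lower, but S100a8 and S100a9 belong to the rule. The part of free RNA or of shared droplets in these genes was not tested.

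Most monocyte genes compared were lower in the Het members, and by how much varied among the sub-groups. Of 9 patrolling monocyte genes 0 were higher and 5 lower, with Itgal at 171 and 295 CPM in all members and 424 and 483 in B, and Ace at 90.4 and 141 in all and 229.8 and 233 in B. Of 7 classical monocyte genes 5 were lower, with Plac8 at 415 and 843 CPM in all and 1043 and 1334 in B. Summed, classical monocyte genes stood at 1871 and 2164 CPM in B, 354 and 1969 in D and 342 and 2005 in E, and patrolling monocyte genes at 2855 and 2924 in B, 277 and 329 in D and 232 and 947 in E. D and E held 13 and 10 WT cells. The direction was not particular to the members. Classical monocyte genes summed to 337 and 721 CPM in homeostatic-high and 186 and 820 in Apoe-high cells (Het and WT). Patrolling monocyte genes summed to 409 and 780 and to 247 and 308 CPM there. In all other kept cells together the sums were 3112 and 3292 CPM (classical) and 2269 and 2779 (patrolling). Resident microglia genes were beyond 1.5-fold in few cases, 0 of 19 higher and 2 lower: Sparc, at 399 and 711 CPM, and Selplg, at 289 and 472. Of 14 immediate early and heat shock genes, 10 class I genes and 26 respiratory chain genes compared, 0 were beyond 1.5-fold in either direction. Iron handling genes were lower for 4 of 7, among them the haem oxygenase Hmox1, at 86.5 and 190.1 CPM.

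Sex-linked RNA differed between the libraries. Of the Het members 93 held only Xist UMIs, 0 held Y-linked UMIs and 47 held neither. Of the WT members 18 held only Xist, 44 only Y-linked, 11 both and 78 neither. In sub-group A, where Malat1 was also low, 42 of 48 and 60 of 68 cells held neither, so the marks say little there. In E, 8 WT cells held only Xist and 2 only Y-linked UMIs, while in B 2 held only Xist and 24 only Y-linked UMIs. Homeostatic-high cells of the WT library ran the other way from the members, with 76 cells holding only Xist, 7 only Y-linked UMIs, 19 both and 83 neither. The WT library thus held RNA of both sexes in unequal shares by population, and the part of sex in the differences between the libraries was not tested.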

How the data were processed

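The authors deposited, for each of the 2 libraries, whole-number UMI counts per gene and barcode from 10x 3' version 3.1 libraries. Cell Ranger 4.0 and mm10 are named per the submitters' processing notes, while the file headers name Cell Ranger 5.0.0. The members and gene lists used here were chosen with earlier results of these data known. Barcodes with at least 500 genes, under 10% mitochondrial UMIs and no copy in the other library were kept. Scrublet (in scanpy 1.11.5) called 0 of 1234 and 2 of 1751 cells as doublets, which is too few to show that the caller worked, and no cell was removed.

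UMIs were summed over the cells of each population and library and divided by their total, giving CPM, so deep cells weigh more. Levels of single cells are CPM of that cell. Neither is corrected for gene length, which a 3' count does not need. Intervals are exact at 95% (Poisson, Clopper-Pearson for shares, conditional binomial for ratios), and the limit of a count of 0 is 3 counts. UMIs are molecules of these cells only, so intervals hold no variation between animals. A gene counted as higher or lower beyond 1.5-fold with at least 100 UMIs. The named genes were the 10 highest and 10 lowest for Het over WT members, 12 each way against each neighbour population and 15 against all other kept cells. Genes of the rule, predicted, ribosomal, mitochondrial and sex-linked genes were left out of these ranks. Up to 4 genes per list with the largest log2 ratio, or the 2 most abundant where none passed, were added, and genes named outside this rule were chosen after their values were seen. Some genes that meet the rule are not reported here. Cells were clustered with Leiden (igraph 0.11.9, resolution 0.5, seed 0) on 2000 variable genes, 30 components and 15 neighbours, and members alone on 1000 genes and 15 components. Alternatives changed the filters, gates, depth, scaling (TMM of edgeR 4.0.16, median of ratios of DESeq2 1.42.0), the UMI minimum and the cells entering. The ratio code was tested on simulated data.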

Additional observations from a re-analysis of the deposited data

Results flagged for a closer look

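Both G0s2 and Slpi differed in opposite directions between the libraries in neighbouring populations. G0s2 had a Het over WT log2 ratio of 1.22 (0.62 to 1.82) in homeostatic-high cells and -3.87 in members. Slpi had a ratio of 1.31 (0.71 to 1.93) in homeostatic-high cells and -2.63 in members. The difference between the populations was not tested for either gene.

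Barcodes listed in both libraries were left out, yet 19 of them in the Het library and 8 in the WT library met the other parts of the rule. They are not among the 291 members, and which library such a barcode belongs to was not tested.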

How the results depend on the processing

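The shares of members, the 3 pairs of gene counts and the Cx3cr1 ratio were recomputed under 20 alternative settings. Of the 154 values this gave, 111 stayed within their limits (1.5 times for a count, the counting interval for a share or the ratio) and 43 moved past them. The UMI minimum does not enter the Cx3cr1 ratio and could not move it. No paired analysis was possible because each genotype has 1 library. The alternatives that leave out or reweight sub-groups were added after seeing the data. Keeping the barcodes listed in both libraries moved none of these values past those limits, but turned the Het over WT split to 158 higher and 119 lower. The cause was not tested unless an alternative removes cells or genes by construction. The Het and WT shares became 7.46% and 5.14% with a homeostatic gate of 750 CPM and 7.05% and 6.28% with an Apoe gate of 20000 CPM. The Het share was 9.15% after thinning to 2000 UMIs, and the WT share 6.45% with 1000 genes and under 5% mitochondrial UMIs and 7.30% among cells of at least 2000 UMIs.

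Thinning, leaving out cells and changing the UMI minimum all alter how many genes can be compared, and that number was not recounted. The counts below are therefore not shares, and a lower count need not mean smaller ratios. After thinning, 104 of 108 values of named genes kept their direction beyond 1.5-fold, 2 fell within it and 2 reversed. For Het over WT, genes higher and lower were 13 and 31 after thinning, 287 and 263 with cells weighing equally, 355 and 330 at a minimum of 50 UMIs and 20 and 46 at 300. Lower genes were 102 with a C1q gate of 8000 CPM, 72 without sub-group B and 104 with the same mix of sub-groups. Higher genes were 81 with the homeostatic gate of 750 and 86 without sub-group D. The Cx3cr1 ratio was 1.08 after thinning, 1.07 with cells weighing equally, 1.13 without sub-group B, 0.701 without sub-group C and 0.947 without the 5% of highest Scrublet scores. Against homeostatic-high cells, genes higher and lower were 40 and 64 after thinning, 371 and 695 at 50 UMIs and 106 and 166 at 300, with 381 (TMM) and 376 (median of ratios) higher. Against Apoe-high cells they were 160 and 32 with the C1q gate of 8000, 37 and 21 after thinning, 458 and 96 at 50 UMIs, 97 and 24 at 300 and 139 and 25 without sub-group B.

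Of 2214 recomputed values of named genes, 2191 kept their direction beyond 1.5-fold, 10 fell within 1.5-fold and 13 reversed. Of these, 116 at each of the minimums of 50 and 300 UMIs repeat the main values, since the minimum enters no ratio. The reversed log2 ratios of Het over WT were Gzma 0.19 and Ccl5 0.19 with the homeostatic gate of 750, Gzma 0.25 and Ccl5 0.85 with cells weighing equally, Ccn1 -1.87 with the Apoe gate of 20000 and -0.10 after thinning, and Mgl2 -0.22 without sub-group E. Against Apoe-high cells they were Cebpa 0.29 (Het) after thinning and, without sub-group B, Ace -0.057 and Pglyrp1 -0.31 (Het) and Dusp5 -0.071, Pglyrp1 -0.11 and Clec4e -0.26 (WT). Depth limits the homeostatic gate, since 23 and 37 members had under 2000 UMIs.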
